A study of Mus musculus with 18 samples.

Results

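The genes described here are Atg9b, Hvcn1, Plcb2, Rbms3, Zer1 and Nacc2, 6 of the 54347 genes in the deposited table of counts. They were selected by symbol because their levels in cells transfected with LNA2 differed from those with ctrlA, so their differences between LNA2 and the other LNAs are descriptions and carry no test. The cells were wt1-SAM brown adipocytes, a single line of immortalised brown preadipocytes of the mouse that had been differentiated. All groups carried SAM, the machinery of the line for CRISPR activation. Polyadenylated RNA was sequenced from 18 libraries in 6 groups of 3. On day 4 of differentiation the cells were reverse transfected with a non-targeting LNA (ctrlA) or with LNA1 or LNA2, each directed against the long non-coding RNA Gm15551. Each LNA was studied in unstimulated cells and in cells treated with 1 µM isoproterenol for 24 h, and all were harvested on day 7. The libraries of each group bore the replicate numbers 2, 3 and 4. The labels do not say whether these were separate cultures, so p-values measure the spread between these libraries, which may be technical.

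An LNA gapmer is a short antisense oligonucleotide with locked nucleic acids at its ends, which pairs with an RNA and directs its cleavage by RNase H. Isoproterenol is a β-adrenergic agonist that raises cyclic AMP in brown adipocytes and activates their thermogenic programme. The 6 genes belong to no single pathway. Atg9b encodes a membrane protein of the ATG9 type, which supplies lipid to forming autophagosomes, Hvcn1 a voltage-gated proton channel best known from phagocytes and B cells, and Plcb2 a phospholipase C of the β class that acts below G protein-coupled receptors. Rbms3 encodes an RNA-binding protein, Zer1 a substrate receptor of the CUL2 ubiquitin ligase, and Nacc2 a BTB domain repressor that recruits the NuRD complex.

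The sequences of the LNAs are shown because the comparison rests on them. They are given 5′ to 3′, as designed.
ctrlA: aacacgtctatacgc
LNA1: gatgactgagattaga
LNA2: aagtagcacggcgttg

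Each targeting LNA had a window without mismatch in the spliced transcript of Gm15551 (ENSMUSG00000086679.2, an antisense gene at chr3:126667329-126669044, minus strand, GRCm38). The windows are written 5′ to 3′ on the transcript, with bases that pair with the LNA in capitals. That of LNA1 was at chr3:126667502-126667517 and that of LNA2 at chr3:126667608-126667623, both in exon 2 of 2 on the minus strand.
Gm15551 window of LNA1: TCTAATCTCAGTCATC
Gm15551 window of LNA2: CAACGCCGTGCTACTT

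The spliced transcripts of the 6 genes were searched in the same way for the window that pairs best with LNA2, and the first window of each is shown with mismatches in lower case. That of Atg9b lay in coding sequence of exon 1 of 14 (chr5:24391836-24391851, minus strand), that of Hvcn1 in the 5′ UTR in exon 1 of 4 (chr5:122207002-122207017, plus strand), and that of Plcb2 in coding sequence of exon 1 of 32 (chr2:118728295-118728310, minus strand). The window of Rbms3 lay in coding sequence of exon 14 of 15 (chr9:116582750-116582765, minus strand) and that of Zer1 in the 3′ UTR in exon 16 of 16 (chr2:30098533-30098548, minus strand). The window of Nacc2 was in coding sequence and spanned the junction of exons 5 and 6 of 6 (chr2:26060472-26061586, intron included, minus strand).
Atg9b: CAgCtCaGTGCctCTg
Hvcn1: gAACtCCagGCctCTT
Plcb2: CAACcCtGTtCTAtTg
Rbms3: CAcCGgCaTaCTcCTT
Zer1: CAgCtCCtTGCcACTc
Nacc2: gAACGCtGTGaaACTg

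The windows of Atg9b and Hvcn1 had 6 mismatches to the 16 bases of LNA2, and those of the other 4 genes had 5. Of 14936 genes tested that had a transcript sequence, 51.4% held a window with 5 mismatches or fewer and 93.4% one with 6 or fewer. The longest unbroken pairing with LNA2 was 7 bases in each of the 6 genes, which was also the median over these genes. By contrast, 4 genes held a window with at most 2 mismatches and 133 one with at most 3, and none of the 6 was among them. Introns were not searched. A match, or the lack of one, is a description of these letters and says nothing on whether an LNA bound there.

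The libraries held between 9167560 and 19723021 counts, and 14949 genes passed the filter on low counts, including all 6. Levels are given as CPM, counts relative to the library total after TMM normalisation. The floor of 3 counts corresponded to 0.17 to 0.306 CPM. The 6 libraries of number 2 stood apart from the other 12: mitochondrial transcripts took 7.857% to 9.793% of their counts against 2.561% to 4.973%, and CT010467.1, a gene of ribosomal RNA, took 2.875% to 14.29% against 0.2846% to 1.039%. Results are therefore also given within the replicate numbers.

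The target itself was near the floor. In unstimulated cells Gm15551 had 14, 8 and 7 counts with ctrlA, 12, 3 and 3 with LNA1 and 13, 3 and 1 with LNA2 (numbers 2, 3 and 4). With isoproterenol it had 9, 2 and 2 counts with ctrlA, 1, 4 and 1 with LNA1 and 4, 5 and 1 with LNA2. The LNA2 libraries overlapped the ctrlA libraries in both states, and in unstimulated cells of number 2 the level with LNA2 (1.07 CPM) was above that with ctrlA (0.794 CPM). Gm15551 did not pass the filter and was not tested, so whether either LNA reduced it was not tested here, and the counts of the target do not check the labels.

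The adipocyte markers examined were all expressed: all 8 passed the filter, and their sum lay between 11200 and 23300 CPM with ctrlA, 9610 and 20000 with LNA1 and 10200 and 19600 with LNA2. The brown adipocyte markers were low, with Ucp1 at 0.621 to 16.5 CPM and Cidea at 3.4 to 25.4 CPM. Hvcn1 and Plcb2 are known best from blood cells. Of 10 leukocyte markers 2 passed the filter (Cd68 and Csf1r). The sum of the 10 lay between 8.62 and 24.9 CPM with ctrlA, 12.2 and 30.4 with LNA1 and 14.5 and 44.8 with LNA2. These ranges overlapped, and the highest sum was found with LNA2. Most of the sum came from Cd68 (7.83 to 42.4 CPM). Csf1r had 1 to 33 counts (0.0887 to 2.31 CPM). The defining leukocyte gene Ptprc had 0 to 3 counts and was at 0 in 11 of 18 libraries. Whether leukocyte RNA had a part in the levels of Hvcn1 and Plcb2 was not tested. Of 6 endothelial markers only Pecam1 was tested, and the sums overlapped between the LNAs (2.45 to 3.86, 1.83 to 4.44 and 1.84 to 3.72 CPM). The sums of 4 preadipocyte markers overlapped as well (14.9 to 66.2, 20.1 to 74.7 and 21.1 to 71.9 CPM).

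Compared with ctrlA, the 3 genes Atg9b, Hvcn1 and Plcb2 were higher and Rbms3, Zer1 and Nacc2 were lower with LNA2, in unstimulated and in stimulated cells alike. Averaged over both states the differences ran from 7.17-fold higher (Atg9b) to 3.18-fold lower (Rbms3). In edgeR 147 genes, 0.983% of those tested, were called higher with LNA2 (adjusted p below 0.05 and a log2 fold change above 0.5), and 66 genes, 0.442%, were called lower. The 6 genes are among them because they were selected on this contrast. With the replicate number as a block 564 genes were called higher and 262 lower. By size of the log2 fold change Atg9b, Hvcn1 and Plcb2 ranked 13, 14 and 36 from the top of the 14949 genes and Rbms3, Zer1 and Nacc2 36, 46 and 49 from the bottom. In bulk RNA a smaller number of cells that express a gene and less RNA per cell cannot be told apart.

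**Figure D1:**
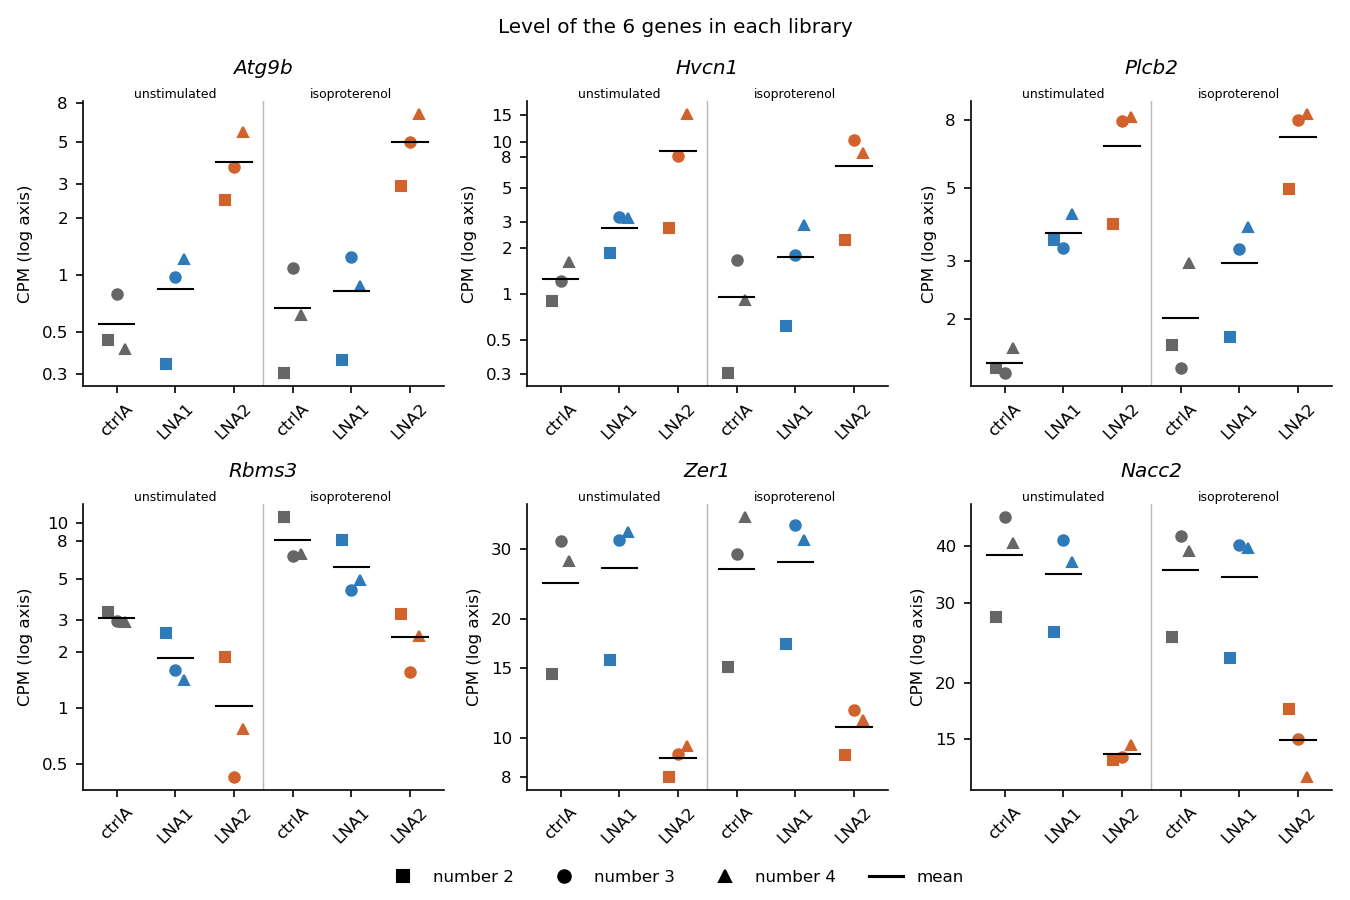
CPM (log axis) of the 6 genes in the 18 libraries, by LNA and stimulation. Squares, circles and triangles mark the replicate numbers 2, 3 and 4, and bars mark the mean of 3 libraries. In both states all LNA2 libraries lie above the ctrlA libraries for Atg9b, Hvcn1 and Plcb2 and below them for Rbms3, Zer1 and Nacc2.

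Atg9b (ENSMUSG00000038295.14, chr5:24384181-24392143, minus strand) was barely above the floor without LNA2. Unstimulated libraries 2, 3 and 4 had 0.454, 0.794 and 0.408 CPM with ctrlA, 0.34, 0.976 and 1.22 CPM with LNA1 and 2.48, 3.69 and 5.67 CPM with LNA2. With isoproterenol they had 0.304, 1.09 and 0.613 CPM with ctrlA, 0.355, 1.24 and 0.874 CPM with LNA1 and 2.94, 5.03 and 7.07 CPM with LNA2. Every LNA2 library was thus above every library of the other LNAs, whereas ctrlA and LNA1 overlapped. The mean was 0.611 ± 0.292 CPM with ctrlA, 0.834 ± 0.402 with LNA1 and 4.48 ± 1.76 with LNA2 (SD, n = 6 each), from 51, 59 and 350 counts in all. The log2 fold change of LNA2 over ctrlA was 2.82 (SE 0.56) in unstimulated and 2.86 (SE 0.55) in stimulated cells. Relative to LNA1 it was 2.23 (SE 0.55) and 2.58 (SE 0.54). LNA1 differed from ctrlA by 0.44 (SE 0.43) over both states.

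Atg9b shares 294 exonic bases, 7.45% of its exons, with Nos3 (endothelial nitric oxide synthase) on the opposite strand. Whether the quantification used the strand is not stated, so reads from this stretch cannot be assigned with certainty. Nos3 had 11.3 ± 5.87, 16.1 ± 9.18 and 16.7 ± 8.48 CPM with ctrlA, LNA1 and LNA2 (SD, n = 6 each). Its difference with LNA2 of 0.59 on the log2 scale (SE 0.47) was not called (edgeR, Benjamini-Hochberg adjusted p = 0.82). With the replicate number as a block it was called at 0.58 (adjusted p = 0.00118), as it was without the libraries of number 2 at 0.61 (adjusted p = 0.0303), and over all alternatives the adjusted p ran from 0.00118 to 1. The mean of Nos3 was close between LNA1 and LNA2, while that of Atg9b was not, and the part of shared reads in Atg9b was not tested.

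Hvcn1 (ENSMUSG00000064267.13, chr5:122206804-122242297, plus strand) varied most between libraries of one group. Unstimulated libraries 2, 3 and 4 had 0.908, 1.23 and 1.63 CPM with ctrlA, 1.87, 3.19 and 3.15 CPM with LNA1 and 2.73, 8.01 and 15.3 CPM with LNA2. With isoproterenol they had 0.304, 1.67 and 0.919 CPM with ctrlA, 0.621, 1.82 and 2.86 CPM with LNA1 and 2.28, 10.2 and 8.46 CPM with LNA2. LNA2 lay above ctrlA throughout but overlapped LNA1 in both states, because the LNA2 libraries of number 2 were lower than the LNA1 libraries of numbers 3 and 4 (unstimulated) or number 4 (stimulated). The mean was 1.11 ± 0.516 CPM with ctrlA, 2.25 ± 1.01 with LNA1 and 7.84 ± 4.89 with LNA2 (SD, n = 6 each). Relative to ctrlA the log2 fold change was 2.80 (SE 0.69) in unstimulated and 2.82 (SE 0.72) in stimulated cells. Relative to LNA1 it was 1.67 (SE 0.66) and 1.97 (SE 0.68). Individual libraries weighed on these values: without unstimulated LNA2 number 4 those in unstimulated cells were 2.11 over ctrlA and 0.98 over LNA1, and without stimulated ctrlA number 3 that in stimulated cells was 3.56. The same stimulated ctrlA library moved Atg9b from 2.86 to 3.47.

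A large part of Hvcn1, 1574 exonic bases or 44.2% of its exons, is covered on the opposite strand by Tctn1, which encodes a protein of the ciliary transition zone. Tctn1 had 10.9 ± 1.53, 11.1 ± 2.34 and 15.4 ± 1.86 CPM with ctrlA, LNA1 and LNA2 (SD, n = 6 each). With LNA2 it differed by 0.50 on the log2 scale (SE 0.13, edgeR adjusted p = 0.0781) and was not called. Adjusted p values over the alternatives ran from 0.000418 to 0.411, and without the 6 libraries of number 2 Tctn1 was called at 0.56 (adjusted p = 0.00751), as it was without stimulated LNA2 number 2 at 0.58 (adjusted p = 0.0439). The value of Tctn1 has the same sign as that of Hvcn1 and a smaller size, and the part of shared reads in either value was not tested.

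Plcb2 (ENSMUSG00000040061.17, chr2:118707517-118728438, minus strand) was intermediate with LNA1. Unstimulated libraries 2, 3 and 4 had 1.42, 1.37 and 1.63 CPM with ctrlA, 3.48, 3.28 and 4.17 CPM with LNA1 and 3.88, 7.94 and 8.19 CPM with LNA2. With isoproterenol they had 1.67, 1.42 and 2.96 CPM with ctrlA, 1.77, 3.27 and 3.81 CPM with LNA1 and 4.94, 8.02 and 8.38 CPM with LNA2. LNA2 was above ctrlA in both states and above LNA1 in stimulated cells, but in unstimulated cells its lowest library lay among those of LNA1. The mean was 1.74 ± 0.609 CPM with ctrlA, 3.3 ± 0.822 with LNA1 and 6.89 ± 1.96 with LNA2 (SD, n = 6 each). Relative to ctrlA the log2 fold change was 2.18 (SE 0.36) and 1.84 (SE 0.35) in unstimulated and stimulated cells, and relative to LNA1 it was 0.88 (SE 0.34) and 1.26 (SE 0.35). LNA1 over ctrlA gave 0.94 (SE 0.26) over both states, for which Hvcn1 gave 0.99 (SE 0.52). By state the value of Plcb2 was 1.30 (SE 0.37) in unstimulated and 0.58 (SE 0.36) in stimulated cells. Its LNA1 and ctrlA libraries overlapped in stimulated cells only.

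Rbms3 (ENSMUSG00000039607.17, chr9:116572746-117629913, minus strand) spans 1057168 bases, the longest of the 6 genes. Unstimulated libraries 2, 3 and 4 had 3.29, 2.96 and 2.94 CPM with ctrlA, 2.55, 1.6 and 1.42 CPM with LNA1 and 1.9, 0.425 and 0.77 CPM with LNA2. With isoproterenol they had 10.8, 6.69 and 6.84 CPM with ctrlA, 8.16, 4.36 and 4.93 CPM with LNA1 and 3.23, 1.57 and 2.46 CPM with LNA2. LNA2 was below ctrlA in both states and below LNA1 in stimulated cells, while in unstimulated cells LNA2 number 2 was above LNA1 numbers 3 and 4. The mean was 5.58 ± 3.13 CPM with ctrlA, 3.84 ± 2.56 with LNA1 and 1.73 ± 1.04 with LNA2 (SD, n = 6 each). On the log2 scale the difference from ctrlA was -1.59 (SE 0.45) in unstimulated and -1.75 (SE 0.41) in stimulated cells, and that from LNA1 was -0.87 (SE 0.46) and -1.27 (SE 0.41). Without unstimulated LNA2 number 2 the unstimulated values were -2.32 and -1.60, and without unstimulated LNA2 number 3 they were -1.21 and -0.49. LNA1 differed from ctrlA by -0.60 (SE 0.29) over both states.

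Zer1 (ENSMUSG00000039686.14, chr2:30097283-30124585, minus strand) overlapped between ctrlA and LNA1 and was lower with LNA2. Unstimulated libraries 2, 3 and 4 had 14.5, 31.4 and 27.9 CPM with ctrlA, 15.7, 31.6 and 33.1 CPM with LNA1 and 8.01, 9.14 and 9.59 CPM with LNA2. With isoproterenol they had 15.1, 29 and 36 CPM with ctrlA, 17.3, 34.4 and 31.5 CPM with LNA1 and 9.11, 11.8 and 11.1 CPM with LNA2. No LNA2 library overlapped those of the other LNAs, and number 2 was the lowest library of every group. The mean was 25.7 ± 8.85 CPM with ctrlA, 27.3 ± 8.41 with LNA1 and 9.8 ± 1.41 with LNA2 (SD, n = 6 each). Relative to ctrlA the log2 fold change was -1.46 (SE 0.37) in unstimulated and -1.32 (SE 0.37) in stimulated cells, and relative to LNA1 it was -1.58 (SE 0.37) and -1.38 (SE 0.37). LNA1 differed from ctrlA by 0.09 (SE 0.25), with a 95% confidence interval from -0.45 to 0.63.

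Nacc2 (ENSMUSG00000026932.14, chr2:26055535-26123220, minus strand) had the highest level per kb of exon of the 6 genes with ctrlA (4.72 CPM per kb) and the smallest error. Unstimulated libraries 2, 3 and 4 had 27.9, 46.4 and 40.6 CPM with ctrlA, 25.9, 41.2 and 37 CPM with LNA1 and 13.5, 13.7 and 14.6 CPM with LNA2. With isoproterenol they had 25.2, 42.2 and 39 CPM with ctrlA, 22.7, 40.3 and 39.6 CPM with LNA1 and 17.5, 15 and 12.4 CPM with LNA2. As for Zer1, the LNA2 libraries were below all others. The mean was 36.9 ± 8.41 CPM with ctrlA, 34.5 ± 8.05 with LNA1 and 14.5 ± 1.74 with LNA2 (SD, n = 6 each). Relative to ctrlA the log2 fold change was -1.46 (SE 0.26) in unstimulated and -1.25 (SE 0.26) in stimulated cells, and relative to LNA1 it was -1.31 (SE 0.26) and -1.20 (SE 0.26). LNA1 differed from ctrlA by -0.10 (SE 0.18), with a 95% confidence interval from -0.49 to 0.30. The antisense gene Gm13554 covers 477 bases (6.1%) of the exons of Nacc2 and had 0 counts with ctrlA and 4 counts each with LNA1 and LNA2.

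**Figure D2:**
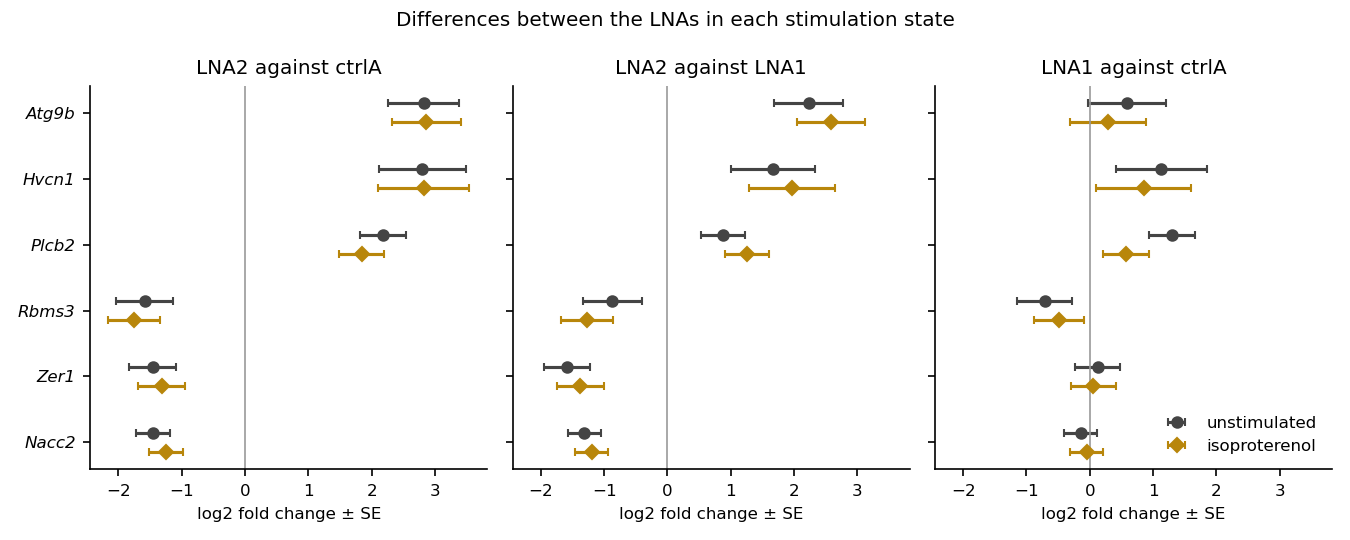
Log2 fold change ± SE from the edgeR model for LNA2 against ctrlA, LNA2 against LNA1 and LNA1 against ctrlA (panels from left to right) in unstimulated cells (circles) and with isoproterenol (diamonds). For LNA2 against ctrlA the values lie between 1.84 and 2.86 for the 3 higher genes and between -1.75 and -1.25 for the 3 lower genes, and for LNA1 against ctrlA Zer1 and Nacc2 lie near 0.

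The 6 genes thus differed in their level with LNA1. By library overlap, Atg9b, Zer1 and Nacc2 were separate from LNA1 in both states, Plcb2 and Rbms3 in stimulated cells only, and Hvcn1 in neither. Between libraries of the same number, LNA2 was above LNA1 in both states for Hvcn1 and Plcb2 and below it for Rbms3. In numbers 2, 3 and 4 the unstimulated ratio to LNA1 was 1.46, 2.51 and 4.86 for Hvcn1 and 1.12, 2.41 and 1.96 for Plcb2. With isoproterenol it was 3.68, 5.62 and 2.95 for Hvcn1 and 2.79, 2.45 and 2.2 for Plcb2. Rbms3 was 1.34-, 3.76- and 1.85-fold lower in unstimulated and 2.53-, 2.77- and 2-fold lower in stimulated cells. Among all genes tested, 2.1% had LNA2 libraries above all ctrlA libraries in both states and 1.38% below. Against LNA1 the shares were 1.07% above, where 1 of the 3 higher genes was found, and 1.38% below, where 2 of the 3 lower genes were found. The comparisons share the LNA2 libraries, and the selection of the genes used these libraries, so that nothing is read from these shares about the genes.

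Within the replicate numbers the direction against ctrlA was the same in 3 of 3 numbers and in both states for all 6 genes, which the selection favours. The size differed. In unstimulated cells the ratio of LNA2 to ctrlA in numbers 2, 3 and 4 was 5.46, 4.63 and 13.9 for Atg9b, 3.01, 6.54 and 9.38 for Hvcn1 and 2.73, 5.78 and 5.03 for Plcb2. The lower genes were 1.73-, 6.96- and 3.81-fold lower for Rbms3, 1.81-, 3.43- and 2.91-fold lower for Zer1 and 2.07-, 3.36- and 2.77-fold lower for Nacc2. Number 2 thus gave the smallest ratio for 5 of the 6 genes, Atg9b being the exception. In stimulated cells the ratios were 9.71, 4.59 and 11.6 for Atg9b, 7.52, 6.11 and 9.19 for Hvcn1 and 2.95, 5.66 and 2.83 for Plcb2, and number 2 gave the smallest of none of these. There Rbms3 was 3.34-, 4.26- and 2.79-fold lower, Zer1 1.66-, 2.46- and 3.23-fold lower and Nacc2 1.44-, 2.81- and 3.16-fold lower, with number 2 the smallest for Zer1 and Nacc2. The part of the higher mitochondrial and ribosomal RNA shares of number 2 in this was not tested.

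**Figure D3:**
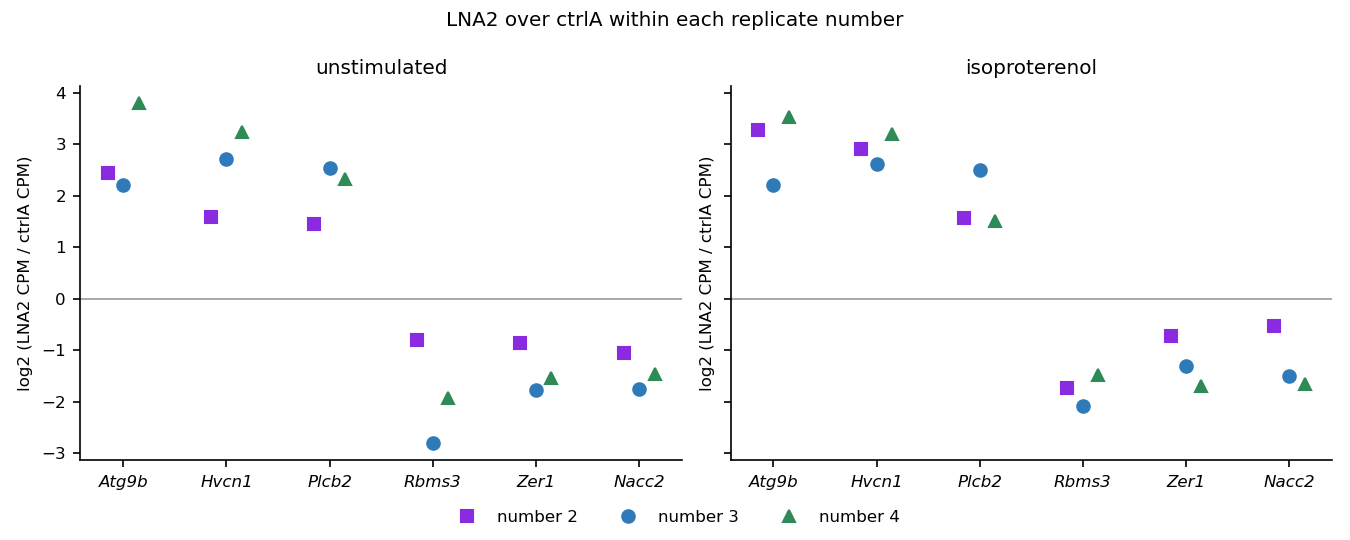
Log2 ratio of CPM with LNA2 to CPM with ctrlA within each replicate number, in unstimulated cells (left) and with isoproterenol (right). Squares, circles and triangles mark numbers 2, 3 and 4. All points of Atg9b, Hvcn1 and Plcb2 lie above 0 and all points of Rbms3, Zer1 and Nacc2 below.

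The response to isoproterenol was not used to select the genes and was tested. Rbms3 rose 2.68-fold, from 1.98 ± 1.02 CPM in unstimulated to 5.45 ± 2.95 CPM in stimulated cells (SD, n = 9 each), or by 1.42 on the log2 scale (SE 0.25, edgeR adjusted p = 0.00279). It was higher in 9 of 9 pairs of the same LNA and number, with ratios from 1.7 to 3.7, and stayed called under all 23 alternatives (log2 1.3 to 1.68, adjusted p from 1.06e-06 to 0.009). Within a single LNA the change was 1.40 with ctrlA (adjusted p = 0.248 in edgeR), 1.63 with LNA1 (0.127) and 1.24 with LNA2 (0.584), none of them called. With the replicate number as a block all 3 were called, at 1.38 (adjusted p = 0.000817), 1.63 (0.000351) and 1.29 (0.00906). Without the libraries of number 2 the changes with LNA1 (1.60, adjusted p = 0.0225) and LNA2 (1.74, 0.0402) were called as well, and that with LNA1 also without unstimulated LNA2 number 2 alone (1.64, 0.0474). Stimulated and unstimulated libraries did not overlap with ctrlA or LNA1, whereas with LNA2 the unstimulated library of number 2 (1.9 CPM) was above the stimulated library of number 3 (1.57 CPM). The mean of the stimulated LNA2 libraries, 2.42 ± 0.828 CPM, was below that of the unstimulated ctrlA libraries, 3.06 ± 0.198 CPM (SD, n = 3 each), and the libraries of these groups overlapped.

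The other 5 genes were not called for isoproterenol, where 3.2% of all genes tested were called in either direction. In edgeR the log2 fold change was 0.22 (SE 0.33, adjusted p = 0.895) for Atg9b, -0.42 (SE 0.41, adjusted p = 0.775) for Hvcn1 and 0.08 (SE 0.21, adjusted p = 0.957) for Plcb2. It was 0.14 (SE 0.21, adjusted p = 0.891) for Zer1 and -0.01 (SE 0.15, adjusted p = 0.995) for Nacc2. Stimulated libraries were higher in 7 of 9 pairs for Atg9b and Zer1, 6 for Plcb2, 3 for Nacc2 and 2 for Hvcn1. The 95% confidence interval was narrowest for Nacc2 (-0.33 to 0.31) and widest for Hvcn1 (-1.29 to 0.44).

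**Figure D4:**
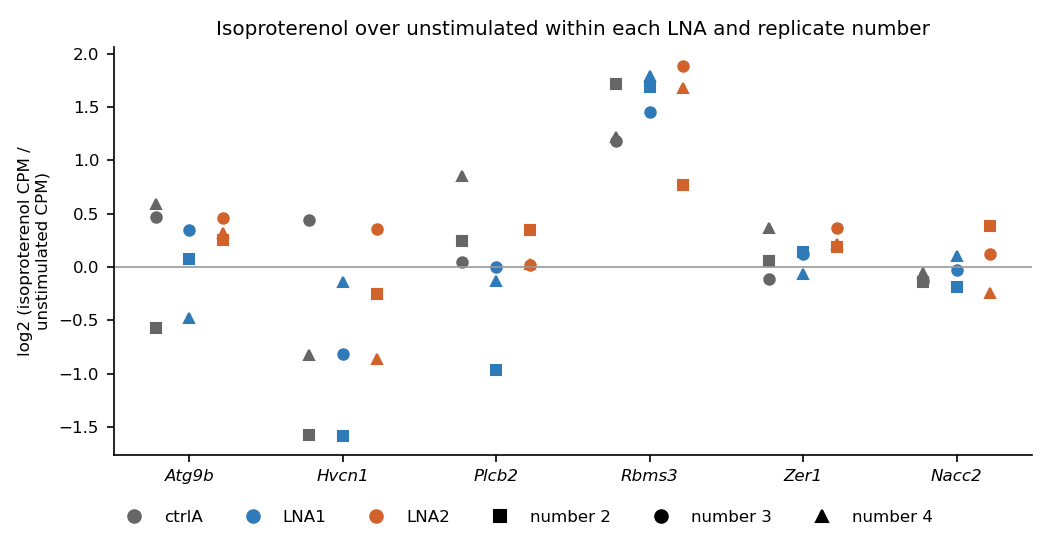
Log2 ratio of CPM with isoproterenol to CPM without it, within each LNA (colours) and replicate number (squares 2, circles 3, triangles 4). All 9 points of Rbms3 lie above 0, and those of the other 5 genes lie on both sides of 0.

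Whether the difference between LNA2 and ctrlA depended on stimulation was tested as an interaction. Its log2 size was 0.04 (95% confidence interval -1.63 to 1.71) for Atg9b, 0.02 (-2.10 to 2.14) for Hvcn1 and -0.34 (-1.41 to 0.74) for Plcb2. It was -0.16 (-1.46 to 1.13) for Rbms3, 0.14 (-0.96 to 1.25) for Zer1 and 0.21 (-0.59 to 1.00) for Nacc2. The adjusted p in edgeR was 1 for all 6. Against LNA1 the interactions ran from -0.39 (Rbms3) to 0.39 (Plcb2), likewise with an adjusted p of 1. With the replicate number as a block the interactions with ctrlA had smaller errors, at 0.15 (SE 0.23) for Zer1, 0.21 (SE 0.25) for Nacc2, -0.27 (SE 0.35) for Plcb2, -0.09 (SE 0.37) for Rbms3, 0.10 (SE 0.50) for Atg9b and 0.14 (SE 0.53) for Hvcn1, and none was called (edgeR adjusted p from 0.858 to 0.994). Single libraries set the sign of several of these values. Against ctrlA the interaction of Rbms3 was 0.57 without unstimulated LNA2 number 2 and -0.54 without unstimulated LNA2 number 3, and without stimulated ctrlA number 3 those of Hvcn1 and Atg9b were 0.75 and 0.64, whereas without stimulated ctrlA number 2 that of Atg9b was -0.31 and without unstimulated LNA2 number 2 that of Hvcn1 was -0.42. Against LNA1 that of Rbms3 ran from -0.77 to 0.35 and that of Hvcn1 from -0.12 to 0.99, with the extremes again set by unstimulated LNA2 libraries (numbers 3 and 2 for Rbms3, 2 and 4 for Hvcn1). None of the 6 genes was called in either interaction under any alternative. Over all genes tested 0% were called in either interaction in edgeR. Of these 14949 genes 116 and 113 had an unadjusted p under 0.05 in edgeR for the interaction with ctrlA and with LNA1. None of the 6 genes was among them. A calibrated test without any effect would give a larger share, near 0.05, so this fit was cautious. The lack of calls therefore does not show that interactions were absent. DESeq2 called 2 and 0 genes.

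The genes of the same families and complexes were examined with 6 lists of 84 genes, of which 68 were tested. The lists were written from general knowledge, but with earlier results of these data known. With LNA2 against ctrlA 0 of them were called higher and 2 lower, where 0.983% and 0.442% of all genes tested were called. With the replicate number as a block 0 list genes were called higher and 3 lower, where 564 and 262 of all genes tested were. The median log2 fold change of the list genes was -0.01, as against -0.02 over all genes. The members of the lists were spread around 0, from -0.72 to 0.49.

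The 18 genes around ATG9, which form the initiation and lipid transfer machinery of autophagy, had a median of 0.03 (-0.21 to 0.40) and 0 calls. Atg9a, the widely expressed relative of Atg9b, had 14.2 CPM per kb of exon with ctrlA and 16 with LNA2, as against 0.155 and 1.14 for Atg9b (difference of Atg9a 0.17 on the log2 scale, SE 0.39, edgeR adjusted p = 0.978). The level of Atg9b per kb thus remained below that of Atg9a even with LNA2. The list of 15 genes for Hvcn1 held the NADPH oxidases and their regulators, whose charge the proton channel balances in phagocytes, and Tpte, a phosphatase with a related voltage sensor. Of these 4 were tested and 0 were called (median 0.16). The catalytic subunit Cybb had 10 counts over all libraries and Nox4 had 98, and neither was tested.

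Of 19 genes of phospholipase C β and Gq signalling 14 were tested, with a median of -0.05 and 0 calls. Per kb of exon Plcb2 had 0.264 CPM with ctrlA and 1.04 with LNA2, as against 0.468 and 0.453 for Plcb4, so that its mean was below that of Plcb4 with ctrlA and above it with LNA2. Plcb1 at 10.7 and 7.83 and Plcb3 at 11 and 10.4 CPM per kb were higher with both LNAs. Plcb1 had 119 ± 17 CPM with ctrlA and 87 ± 12.4 with LNA2 (SD, n = 6 each). Its log2 fold change of -0.45 (SE 0.11, edgeR adjusted p = 0.0568) was not called, but without stimulated ctrlA number 2 (-0.50, adjusted p = 0.0375), without unstimulated LNA2 number 3 (-0.53, adjusted p = 0.0305) and without all libraries of number 2 (-0.51, adjusted p = 0.0128) it was. Plcb3 (-0.09) and Plcb4 (-0.05) were not called either (adjusted p = 0.987 and 0.986 in edgeR). Prkce, a protein kinase C named here after its values were seen, differed by -0.64 on the log2 scale (SE 0.27, edgeR adjusted p = 0.369), and with the replicate number as a block it was called at -0.60 (adjusted p = 0.000114). Without the 6 libraries of number 2 its value was -0.72 (adjusted p = 0.00061).

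Rbms1 and Rbms2, the relatives of Rbms3, had 13.4 and 23.6 CPM per kb with ctrlA, as against 0.536 for Rbms3. With LNA2 they differed by -0.05 (SE 0.10, adjusted p = 0.976) and -0.15 (SE 0.13, adjusted p = 0.838) on the log2 scale and were not called.

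All 15 genes of the CUL2 ligase and its receptors were tested, and 2 of them fell with LNA2. Fem1b, a substrate receptor of the ligase, fell by 0.72 (log2, SE 0.13, edgeR adjusted p = 0.00782) from 71.1 ± 13.5 to 43 ± 2.41 CPM (SD, n = 6 each), and had 70.6 ± 7.28 CPM with LNA1 (LNA2 against LNA1 -0.72, adjusted p = 0.0114). Fem1c fell by 0.56 (log2, SE 0.10, edgeR adjusted p = 0.0096) from 35.1 ± 2.25 to 23.8 ± 3.45 CPM, with 32.4 ± 2.39 CPM for LNA1. Its difference between LNA2 and LNA1 was -0.45 (edgeR adjusted p = 0.0522) and was not called. It was called at -0.52 without stimulated LNA2 number 2 (adjusted p = 0.0131) and at -0.52 without all libraries of number 2 (adjusted p = 0.00967). Both calls against ctrlA were lost without TMM scaling (-0.67, adjusted p = 0.0756, and -0.50, adjusted p = 0.0242), as was that of Fem1b against LNA1 (-0.68, adjusted p = 0.108), and that of Fem1c also without the filter on low counts (adjusted p = 0.0699). Their adjusted p ran from 5.39e-06 to 0.0756 and from 2.14e-06 to 0.0699 over 23 alternatives. The receptors closest to Zer1 were not called: Zyg11b, which like Zer1 recognises proteins with an N-terminal glycine, differed by -0.14 (adjusted p = 0.842) and Zyg11a, close to the floor, by 0.06 (adjusted p = 0.993). Per kb of exon Zer1 had 2.63 CPM with ctrlA and 1 with LNA2, and Zyg11b 13.7 and 12.4.

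The list of 15 genes for Nacc2, made of Nacc1, the NuRD complex and Mdm2, had a median of 0.01 and 0 calls. Nacc1 had 34.4 CPM per kb with ctrlA against 4.72 for Nacc2, and differed by 0.06 with LNA2 (SE 0.29, adjusted p = 0.99). Mdm2, the ubiquitin ligase of p53 and a known target of repression by Nacc2, was named here after its values were seen. A link between its level and that of Nacc2 was not tested. Mdm2 had 137 ± 16.4 CPM with LNA2 and 97.9 ± 5.9 CPM with ctrlA (SD, n = 6 each). The difference of 0.49 on the log2 scale (SE 0.10, edgeR adjusted p = 0.0176) was just under the fold limit of 0.5. Against LNA1, where Mdm2 had 93.3 ± 8.39 CPM, the difference was 0.56 (edgeR adjusted p = 0.0101) and passed both limits. That call was lost without the filter on low counts (0.57, adjusted p = 0.0774) and, by its size, without stimulated LNA2 number 4 (0.50, adjusted p = 0.027). Against ctrlA it passed the limit at 0.57 without TMM (adjusted p = 0.0233) and at 0.57 without the libraries of number 2 (adjusted p = 0.00898), and at 0.50 to 0.53 when unstimulated ctrlA number 2 or 4, or LNA2 number 2 or 3 of either state, was left out. Without the filter on low counts it was 0.47 (adjusted p = 0.23), the highest adjusted p of the 23 alternatives, of which the lowest was 5.09e-05. With isoproterenol 1 of the 68 list genes was called, where 3.2% of all genes tested were: Chd3, a NuRD helicase, rose by 0.81 (log2, edgeR adjusted p = 0.0252). This call was lost without TMM (adjusted p = 0.0798) and when unstimulated ctrlA number 2 (adjusted p = 0.0617), stimulated ctrlA number 3 (0.0587) or 4 (0.052), stimulated LNA1 number 3 (0.0605) or stimulated LNA2 number 3 (0.0557) was left out.

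**Figure D5:**
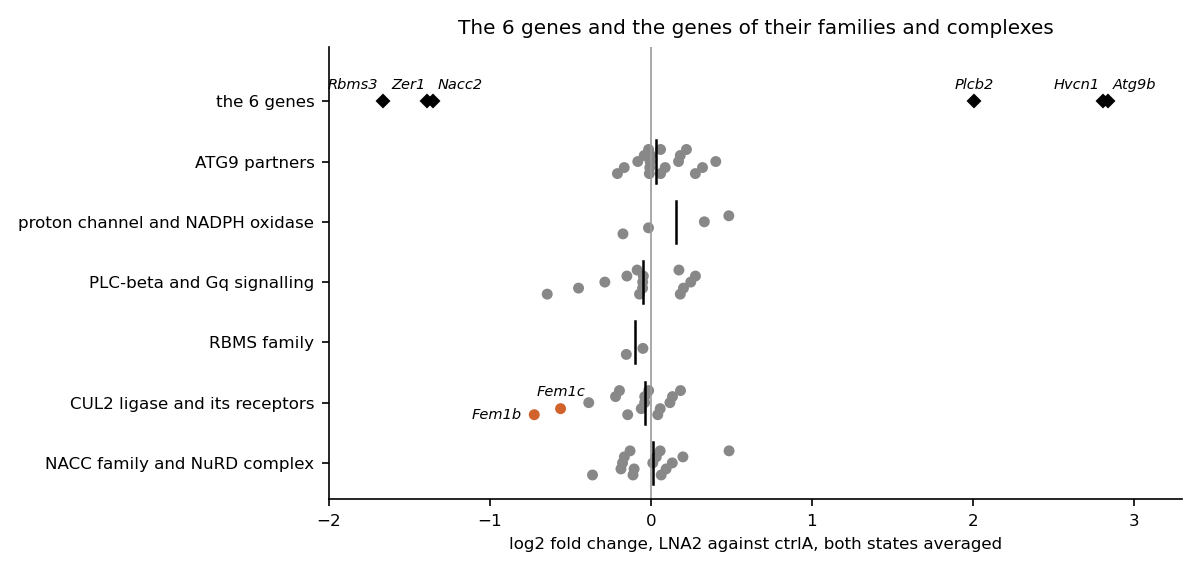
Log2 fold change of LNA2 against ctrlA, averaged over both states, for the 6 genes (diamonds) and the tested genes of the 6 lists (points). Vertical bars mark the median of each list, and the coloured points are Fem1b (-0.72) and Fem1c (-0.56), the genes called. The list genes lie between -0.72 and 0.49, inside the range spanned by the 6 genes.

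The genes whose levels ran most like those of the 6 genes were found by Pearson's r of log2 CPM over the 18 libraries, after removing the mean of each replicate number, among 13169 genes with a mean of at least 1 CPM. Closest to Atg9b were Ccp110 (0.956), Brd3os (0.953) and Fam219a (0.934). Hvcn1 ran with Sec22c (0.942), Cfap300 (0.941) and Ap3m2 (0.922), and Plcb2 with Pfn2 (0.967), Map6 (0.944) and Adgrg1 (0.937). Rbms3, which also follows isoproterenol, ran with Eif1ad7 (0.956), Cks2 (0.95) and Slc25a51 (0.929). Zer1 had Stat5b (0.969), Nacc2 (0.967) and Arf3 (0.965), and Nacc2 had Wdhd1 (0.978), Fndc3b (0.971) and Zer1 (0.967), so that these 2 of the 6 genes were among each other's nearest 3. The points share their libraries and the difference between LNA2 and the other LNAs, and the values are descriptions. The removal of the number means weighed on some of them: without it r was 0.949 between Zer1 and Nacc2, but 0.388 between Hvcn1 and Cfap300, 0.504 between Rbms3 and Slc25a51, 0.619 between Rbms3 and Cks2 and 0.67 between Atg9b and Ccp110.

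The windows of 300 bases around the start sites, taken from RefSeq on GRCm38.p6, were searched on both strands for TGACGTCA, the full cyclic AMP response element, and for TGACG, its shorter form that the full element contains. Windows matched 5 of the 6 genes, Hvcn1 not being among them. The full element was in 0 of their 7 windows, as against 1.79% of 32851 windows, and the short form in 1, that of Zer1, as against 20.8%. Neither of the 2 windows of Rbms3 held these letters.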

How the data were processed

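RNA was extracted from wt1-SAM brown adipocytes and sequenced as paired-end libraries of polyadenylated RNA (NEBNext Ultra II). The authors used cutadapt for quality trimming and salmon with the Gencode M22 transcriptome (GRCm38) for quantification. The submitters' processing notes also list bcl2fastq and DESeq2. Versions, the use of strand and the summing of transcripts to genes are not given in the sources used here. The deposited values are expected counts per gene, estimated by salmon and given as whole numbers (0 values were not whole), without scaling or filter. salmon divides fragments that fit several transcripts by probability, so counts of paralogues are uncertain.

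The 18 libraries were grouped by LNA and stimulation as labelled. Counts were analysed in R 4.3.3 with edgeR 4.0.16: filterByExpr (minimum count 10, minimum total 15) kept 14949 of 54347 genes, normalisation was by TMM, and 1 quasi-likelihood model, with a coefficient for each group, took in all libraries. Contrasts were averaged over states or taken within a state, two-sided, with Benjamini-Hochberg adjustment over all genes tested. A gene was called at an adjusted p below 0.05 and an absolute log2 fold change above 0.5, an interaction at an adjusted p below 0.05. Standard errors are those of the fitted coefficients. CPM are given as mean ± SD. Intervals and floors (3 counts) cover counting error or spread between libraries only, as reads carried no molecular identifiers. Libraries totalled 9167560 to 19723021 counts. In 18 pairs of libraries of one group the chi-square per degree of freedom was 3.07 to 107, so all were counted as separate. It was 49.3 to 107 in pairs with number 2 and 3.07 to 22.5 between numbers 3 and 4. Numbers 3 and 4 were thus closer to each other than to number 2. Whether they come from independent cultures is not known. The fit was tested on simulated data.

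Same-numbered libraries deviated together from their group means in 45 of 45 pairs (r from 0.24 to 0.722), so a fit with the replicate number as a block was added as an alternative. The others were DESeq2 1.42.0, no filter, library totals without TMM, no libraries of number 2, and each library left out in turn.

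The 6 genes and the lists were chosen with earlier results of these data known. The lists of families, complexes and cell type markers were written from general knowledge. Beside the 6 genes the text names their closest relatives (for Hvcn1 the oxidase genes Cybb and Nox4 in their place) whatever their values, list genes called with LNA2, genes with opposite-strand exons, the 3 genes of highest correlation with each, and Gm15551. Mdm2, Prkce and Chd3 lie outside this rule and were named after their values were seen. Coordinates, exons and transcript sequences are those of GENCODE M21 on GRCm38, which held 99.53% of the listed identifiers. That of Rbms3 carried another version there. LNA sequences are those listed by the study. Figures were drawn with matplotlib 3.10.9 in Python 3.11.15 (pandas 2.3.3, numpy 2.4.6).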

Additional observations from a re-analysis of the deposited data

Results flagged for a closer look

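The ratios of Plcb2 with and without isoproterenol lay on opposite sides of 1 under different LNAs, although within no LNA was the change called: it was 0.43 with ctrlA, -0.30 with LNA1 and 0.09 with LNA2 (log2, edgeR adjusted p = 1 for each). The ratio of stimulated to unstimulated CPM in numbers 2, 3 and 4 was 1.18, 1.03 and 1.81 with ctrlA and 1.27, 1.01 and 1.02 with LNA2, all above 1, so that the lowest values were 1.03 and 1.01. With LNA1 it was 0.51, 0.997 and 0.914, all below 1, with a highest value of 0.997. The difference between LNA1 and ctrlA was not tested. That between LNA2 and LNA1 was 0.39 (log2, SE 0.49, edgeR adjusted p = 1), and several of the ratios are within a few percent of 1. Single outlying libraries within groups of 3 were not among the results flagged here. Fits with each library left out in turn are given in the next section.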

How the results depend on the processing

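The differences of LNA2 from ctrlA and from LNA1 in the 6 genes kept their sign in all 828 values obtained under the alternatives, and 3 of them moved by more than 1 SD, all for Rbms3 in unstimulated cells. LNA2 against ctrlA was -2.26 without the 6 libraries of number 2. With single libraries left out it ran from -2.32 to -1.21, and LNA2 against LNA1 from -1.60 to -0.49. LNA1 against ctrlA, refitted like the list genes against LNA1 by a choice made after seeing the data, changed sign in 18 of 414 values (Zer1, Nacc2 and stimulated Atg9b). The isoproterenol call of Rbms3 over all LNAs was kept throughout, and no other of the 6 genes was called under any alternative. Within single LNAs Rbms3, uncalled before, was called with the block at 1.38 (ctrlA), 1.63 (LNA1) and 1.29 (LNA2), by DESeq2 at 1.42 (ctrlA) and 1.65 (LNA1), without TMM at 1.65 (LNA1) and without number 2 at 1.60 (LNA1) and 1.74 (LNA2). With single libraries left out the change with LNA1 ran from 1.32 to 1.92 and was called once, without unstimulated LNA2 number 2. The change with ctrlA ran from 1.13 to 1.53. That with LNA2 ran from 0.86, without unstimulated LNA2 number 3, to 1.99, without unstimulated LNA2 number 2. The fit with the replicate number as a block called 564 genes higher and 262 lower with LNA2, against 147 and 66, and 1046 with isoproterenol, against 479. Beside these Rbms3 calls, the block changed those of Prkce (-0.60, adjusted p = 0.000114) and Nos3 (0.58, adjusted p = 0.00118) and no other of the results refitted. DESeq2 called 224 and 98 genes with LNA2 and 613 with isoproterenol, no filter gave 99 and 54, no TMM 167 and 47, and the fit without number 2 gave 506, 232 and 726. With single libraries left out the counts were 72 to 182 higher, 41 to 80 lower and 394 to 477 for isoproterenol, and 1 gene was called in each interaction without stimulated LNA2 number 3. The lowest counts with LNA2, 72 and 41, came without unstimulated LNA2 number 4. Of the list genes 1 was called higher with LNA2 without TMM and 1 without number 2, as against 0, and 0 to 1 with single libraries left out. The number called lower was 3 with the block, 1 without filter, 0 without TMM and 4 without number 2, as against 2, and 2 to 3 with single libraries left out (3 without stimulated ctrlA number 2 or unstimulated LNA2 number 3). Skipping TMM moved the median over all genes from -0.02 to 0.06. Atg9b in ctrlA and LNA1 rests on few counts (51 and 59 over 6 libraries), which limits its fold change. The planned search of introns for LNA windows was not run, since the genomic sequence used here was limited to the windows around the start sites.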
